A study of Mus musculus with 12 samples.

Results

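Colony stimulating factors and some of their receptors were examined in BV2 cells, an immortalised mouse microglial line. The 8 genes were the ligand genes Csf1, Il34, Csf2 and Csf3, and the receptor genes Csf2ra, Csf2rb, Csf2rb2 and Csf3r. They were taken by gene symbol from a table of 22180 genes, and all 8 had a feature on the array. A gene with several features was represented by the one with the highest mean over the arrays. The 12 arrays fell into 4 groups of 3, all wild type by their labels and all in 1.5% DMSO. The Telmisartan+LPS cells received telmisartan for 2 h and then LPS for 1 h, and the Telmisartan cells received the drug for 3 h. The LPS cells received vehicle for 2 h and then LPS for 1 h, and the DMSO cells received vehicle for 3 h. LPS (lipopolysaccharide, from bacterial cell walls) activates Toll-like receptor 4, and telmisartan blocks the angiotensin II type 1 receptor. Doses of either agent were not given in the sources used here. Independent samples are mentioned in the labels, but nothing else ties an array to its own culture, so p-values measure the spread between arrays, which may be partly technical.

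Colony stimulating factors are secreted proteins that drive the survival, growth and activation of myeloid cells. Csf1 (M-CSF) and Il34 are alternative ligands of a shared receptor tyrosine kinase on which microglia depend, Csf2 (GM-CSF) promotes inflammatory macrophage states, and Csf3 (G-CSF) drives the production of neutrophils. The GM-CSF receptor joins the ligand-specific alpha chain Csf2ra to the common beta chain Csf2rb, which also serves interleukin-3 and interleukin-5. In mice a second beta chain, Csf2rb2, is used for interleukin-3, and Csf3r is the G-CSF receptor. The receptor shared by Csf1 and Il34 was not among the genes examined, so the receptor results below do not cover it.

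Values are log2 RMA signals, a scale on which 1 unit is a doubling of signal. Each difference between groups is a log2 change from a limma fit, given with its standard error (SE), and the SD beside a group mean is over 3 arrays. Genes with a p under 0.05 after Benjamini-Hochberg adjustment over all 22180 genes are called. Array medians lay between 4.08 and 4.13, correlations between arrays over genes between 0.995 and 0.9974, and residual SDs of single genes had a median of 0.117. In a principal component analysis, replicates 1 and 3 of Telmisartan+LPS stood apart from the other arrays, at 17.31 on the third and 20.18 on the second component. Of 11 measured microglia and macrophage markers, 10 had a mean signal at or above 4.44, the median of all gene means, and P2ry12 was the exception at 3.58. Tmem119, which like P2ry12 marks microglia in the brain, was at 4.84. The median of gene means was reached by 1 of 4 astrocyte markers, 0 of 3 T cell, 1 of 5 neutrophil, 1 of 4 fibroblast, 0 of 2 oligodendrocyte, 2 of 4 neuron and 2 of 3 endothelium markers. With bulk RNA, a change in the share of cells that make a transcript and a change in RNA per cell cannot be told apart.

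With LPS alone, 3 of the 8 genes rose and none fell, and all 3 were ligand genes. Csf2 rose 2.40-fold, Csf3 1.73-fold and Csf1 1.55-fold, while Il34 and the 4 receptor genes did not pass the test. Over all genes, 0.379% rose and 0.0496% fell in this comparison. The 8 genes had a median difference of 0.14, against -0.01 for all genes.

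**Figure D1:**
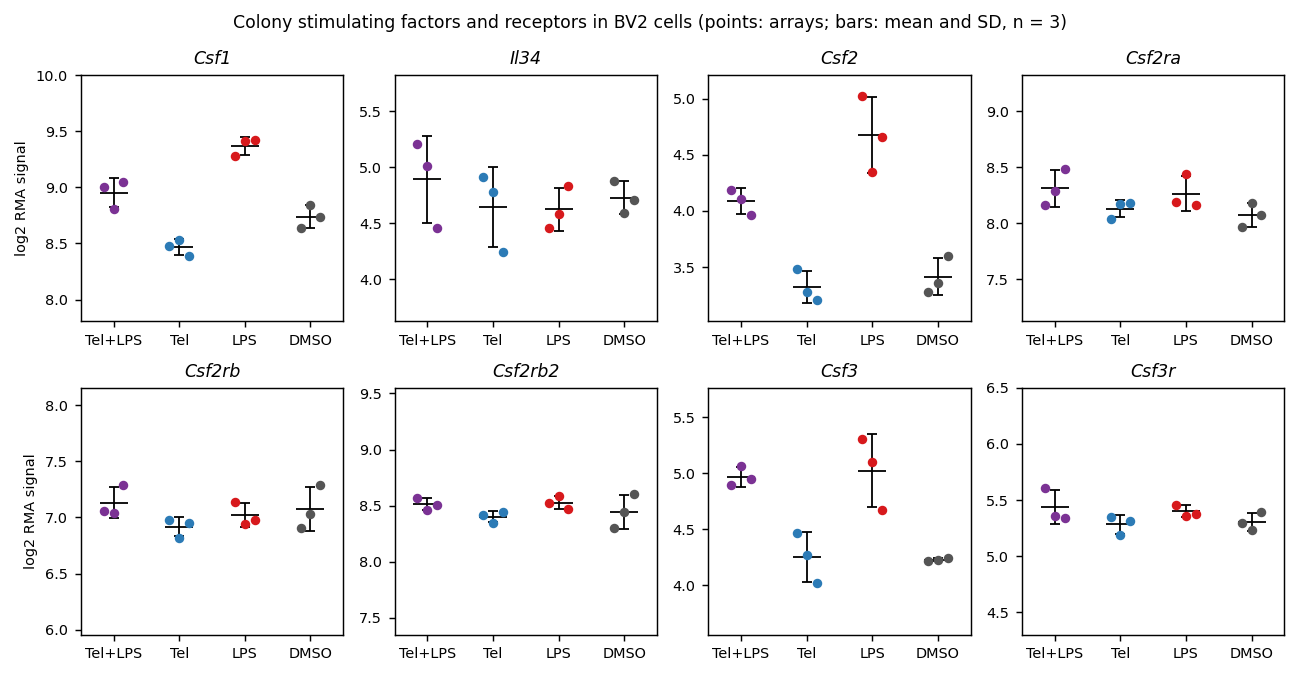
Log2 RMA signal (vertical axis) of each gene in each array (points), with group mean and SD (bars, n = 3), for Telmisartan+LPS, Telmisartan, LPS and DMSO from left to right; every panel spans the same 2.2 log2 units. Csf1, Csf2 and Csf3 are higher in LPS than in DMSO on every array, and the receptor panels are nearly flat.

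Csf2, the GM-CSF gene, had 5.02, 4.35 and 4.66 in LPS, against 3.28, 3.36 and 3.6 in DMSO. The lowest LPS array was above the highest DMSO array, and the spread within LPS was wider, with a mean of 4.68 ± 0.34 in LPS and 3.41 ± 0.17 in DMSO (SD, n = 3 each). The difference was 1.26 (SE 0.14, 95% interval 0.95 to 1.58; limma with Benjamini-Hochberg adjustment, adjusted p = 0.000639). Its mean over all arrays, 3.88, was below the median of all gene means, so Csf2 was a dim feature outside LPS.

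Csf3, the G-CSF gene, had 5.30, 5.10 and 4.67 in LPS, against 4.22, 4.23 and 4.24 in DMSO. The groups did not overlap, and the LPS arrays ranged over 0.63 while the DMSO arrays nearly coincided. Its mean over all arrays, 4.62, was close to the median of all gene means (4.44), and its DMSO mean of 4.23 was below that median. The difference was 0.79 (SE 0.14, 95% interval 0.49 to 1.10; limma, adjusted p = 0.0216). This call was kept in 7 of the 12 single-array omissions and lost in 5. Leaving out any 1 of the 6 arrays given telmisartan kept it (adjusted p in limma from 0.0163 to 0.0398), as did leaving out LPS replicate 3 (adjusted p = 0.00209). The arrays given telmisartan are not part of this difference and bear only on the estimate of spread. Leaving out DMSO replicate 1, 2 or 3 gave adjusted p in limma of 0.106, 0.0987 and 0.0843, and leaving out LPS replicate 1 or 2 gave 0.0942 and 0.116. It was also lost in a fit of these 2 groups alone (adjusted p = 0.0903) and with every feature tested (adjusted p = 0.0971). The difference itself stayed between 0.66 and 0.97 over all 12 single-array omissions.

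Csf1, the M-CSF gene, had 9.28, 9.41 and 9.42 in LPS, against 8.64, 8.84 and 8.74 in DMSO. It was bright in every group, its arrays lay close together, and the LPS arrays were all above the DMSO arrays. The difference was 0.63 (SE 0.08, 95% interval 0.45 to 0.81; limma, adjusted p = 0.00202). Without any 1 array it stayed called, with an adjusted p of 0.0165 at most.

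Il34, the other ligand of the receptor that Csf1 uses, had 4.46, 4.58 and 4.83 in LPS, against 4.88, 4.59 and 4.71 in DMSO. These groups overlapped, and the difference was -0.10 (SE 0.19, 95% interval -0.52 to 0.31; limma, adjusted p = 0.914). Its residual SD of 0.289 was the widest of the 8 genes.

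The receptor genes had 95% intervals that included 0 with LPS alone. Csf2ra was at 0.19 (interval -0.03 to 0.41), Csf2rb at -0.06 (interval -0.28 to 0.17), Csf2rb2 at 0.08 (interval -0.09 to 0.25) and Csf3r at 0.09 (interval -0.09 to 0.27), with adjusted p in limma between 0.608 and 0.912. The highest bound, that of Csf2ra, corresponds to a 1.32-fold rise. Groups of none of the 4 receptor genes were apart, whereas all 3 called ligand genes had groups that did not overlap, which 15.7% of all genes had. Csf2rb and Csf2rb2 are near-identical copies that lie next to each other on chromosome 15 in the RefSeq table, and whether their features bind each other's transcripts was not tested.

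Promoter windows of 5 of the 8 genes were in the RefSeq table for GRCm38.p6, each running from 250 bases before to 50 bases from an annotated start site. No window was available for Csf3, which also rose with LPS, or for Il34 and Csf2rb, so these genes were not searched. The windows of Csf1 (chr3:107760420-107760719, minus strand) and Csf2 (chr11:54249850-54250149, minus strand) are shown because both genes rose with LPS. That of Csf3r (chr4:126024409-126024708, plus strand) is shown because it has the same motif as Csf1 and did not pass the test. The Csf3r gene starts at 126023441 in the RefSeq table, so this window lies inside the gene. Capitals mark motif matches.
Csf1: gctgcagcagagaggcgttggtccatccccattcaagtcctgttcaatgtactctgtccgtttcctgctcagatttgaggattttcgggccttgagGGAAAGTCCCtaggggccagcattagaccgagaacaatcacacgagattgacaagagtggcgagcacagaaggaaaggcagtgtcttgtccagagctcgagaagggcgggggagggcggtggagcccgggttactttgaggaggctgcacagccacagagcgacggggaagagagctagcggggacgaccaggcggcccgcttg
Csf2: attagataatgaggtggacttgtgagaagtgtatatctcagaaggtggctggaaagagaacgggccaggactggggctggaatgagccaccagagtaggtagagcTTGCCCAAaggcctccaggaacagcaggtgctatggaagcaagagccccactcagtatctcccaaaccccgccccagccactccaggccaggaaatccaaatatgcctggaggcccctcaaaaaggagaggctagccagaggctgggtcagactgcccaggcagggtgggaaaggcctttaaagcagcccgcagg
Csf3r: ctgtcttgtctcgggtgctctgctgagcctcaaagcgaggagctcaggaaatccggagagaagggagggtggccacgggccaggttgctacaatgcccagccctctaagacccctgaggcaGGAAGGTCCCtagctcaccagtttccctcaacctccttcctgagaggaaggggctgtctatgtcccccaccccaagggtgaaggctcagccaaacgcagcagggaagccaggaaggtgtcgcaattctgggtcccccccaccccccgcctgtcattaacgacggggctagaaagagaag

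Both strands of each window were searched for 7 motifs: the NF-kB consensus, AP-1 (TGANTCA), the core of the CK-1 cytokine element (GATTCCAC), CRE (TGACGTCA), the PU.1 core (GAGGAAGT), C/EBP (TTGCNNAA) and the TATA box (TATAAA). With the start site counted as 0, the Csf1 window had an NF-kB consensus match at -154 to -145, and the Csf3r window had one at -129 to -120. Such a match was in 8.46% of the 32851 windows of the table. The Csf2 window had a C/EBP match at -145 to -138, a motif found in 10.8% of windows. Of the windows not shown, that of Csf2ra held a CRE match (1.79% of windows) and that of Csf2rb2 a PU.1 core match (3.20%). The AP-1, CK-1 and TATA motifs, in 7.81%, 0.645% and 13.6% of windows, were in none of the 5. Sequence outside these windows was not searched, so the search does not show that a gene lacks a motif. A match of letters is a description of the window only.

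Csf2 was the only one of the 8 genes with more than 1 feature, and its features differed. The feature used had a mean of 3.88 over the 12 arrays. The second feature had 3.90, 3.79 and 3.73 in LPS, against 3.84, 3.8 and 3.79 in DMSO, groups that overlapped, and its difference was -0.0033 (SE 0.09; limma over all 41345 features, adjusted p = 0.995). In Telmisartan+LPS it had 3.74, 3.70 and 4.02, against 3.62, 3.74 and 3.66 in Telmisartan, a difference of 0.15 (SE 0.09, adjusted p = 0.544). Without LPS the feature used was dimmer than the second, at 3.41 against 3.81 in DMSO and 3.32 against 3.67 in Telmisartan. With LPS it was brighter, at 4.68 against 3.81 in LPS and 4.09 against 3.82 in Telmisartan+LPS. Its higher mean thus came from the arrays given LPS, and the choice of feature was not independent of the LPS effect. Every Csf2 result given here belongs to this feature, and its p-values for LPS do not account for that choice.

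**Figure D2:**
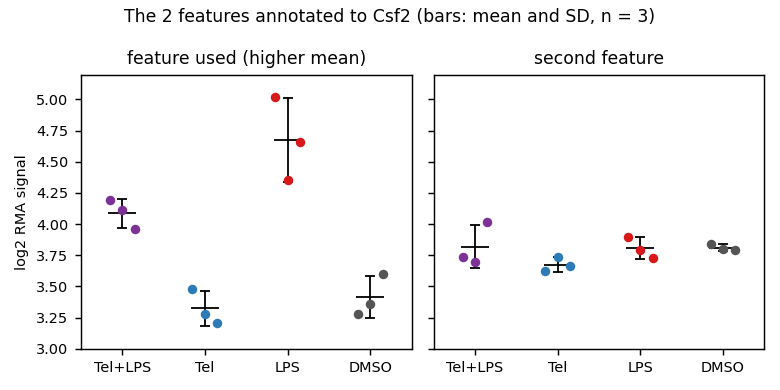
Log2 RMA signal (vertical axis) of the 2 features annotated to Csf2, by array (points), with group mean and SD (bars, n = 3). The feature used separates LPS from DMSO, whereas the second feature stays between 3.62 and 4.02 on all arrays.

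LPS given after telmisartan was set against telmisartan alone, a comparison that shares no array with LPS against DMSO. All 8 genes had a higher mean in Telmisartan+LPS, with a median difference of 0.23 against 0.01 for all genes, and only Csf1 was called. In this comparison 0.248% of all genes rose and 0.0135% fell. Groups did not overlap for 5 of the 8 genes (Csf1, Csf2, Csf3, Csf2rb and Csf2rb2), which 17% of all genes had.

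Csf1 had 9, 8.81 and 9.05 in Telmisartan+LPS, against 8.48, 8.53 and 8.39 in Telmisartan. The difference was 0.49 (SE 0.08, 95% interval 0.31 to 0.67), 1.4-fold (limma, adjusted p = 0.0255). Leaving out Telmisartan replicate 1, 2 or 3 ended the call, with adjusted p in limma of 0.0955, 0.0654 and 0.134, as did leaving out Telmisartan+LPS replicate 1 (0.098) or 3 (0.109). It was also lost with array weights (adjusted p = 0.0528), with every feature tested (0.0748) and in a fit of these 2 groups alone (0.131). The difference stayed between 0.44 and 0.56 over the single-array omissions.

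Csf2 had 4.19, 4.11 and 3.96 in Telmisartan+LPS, against 3.48, 3.28 and 3.21 in Telmisartan. The groups were apart, and the difference of 0.76 (SE 0.14, 95% interval 0.45 to 1.08) just missed the threshold (limma, adjusted p = 0.0531). It passed with limma's trend and robust options (adjusted p = 0.0128), with the arrays of the 2 groups fitted alone (adjusted p = 0.0257), and when LPS replicate 1 (adjusted p = 0.014) or 2 (adjusted p = 0.0171) was left out, arrays that are not part of the difference and bear only on the estimate of spread. Without Telmisartan+LPS replicates 1 and 3 the difference was 0.71 and 0.83 (limma, adjusted p = 0.136 and 0.0894). Over all single-array omissions the adjusted p in limma ran from 0.014 to 0.181, and with every feature tested it was 0.125.

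Csf3 had 4.89, 5.06 and 4.95 in Telmisartan+LPS, against 4.47, 4.27 and 4.02 in Telmisartan. These groups were also apart, with a difference of 0.71 (SE 0.14, 95% interval 0.41 to 1.02) that missed the threshold (limma, adjusted p = 0.059). It passed in limma with trend and robust options (adjusted p = 0.0178) and with dim genes left out (adjusted p = 0.027). It also passed when LPS replicate 1 (adjusted p = 0.0365) or 3 (adjusted p = 0.0135) was left out. These LPS arrays are not part of the difference and bear only on the estimate of spread. Without Telmisartan+LPS replicates 1 and 3 the difference was 0.75 and 0.72 (limma, adjusted p = 0.118 and 0.16). Over all single-array omissions the adjusted p in limma ran from 0.0135 to 0.211, and with every feature tested it was 0.137.

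Il34 had 5.21, 5.01 and 4.46 in Telmisartan+LPS, against 4.91, 4.78 and 4.24 in Telmisartan. Replicate 3 was the lowest in both groups, which overlapped, and the difference was 0.25 (SE 0.19; limma, adjusted p = 0.602). Leaving out Telmisartan+LPS replicate 1 gave 0.09, and leaving out its replicate 3 gave 0.47. Among the receptor genes, the beta chain gene Csf2rb had 7.06, 7.04 and 7.29 in Telmisartan+LPS, against 6.98, 6.82 and 6.95 in Telmisartan (difference 0.21, SE 0.10, adjusted p = 0.385), and groups of both beta chain genes were apart. Csf2ra was at 0.18, Csf3r at 0.15 and Csf2rb2 at 0.11, none past the threshold.

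Averaged over both drug states, the LPS effect was positive for all 8 genes and called for the same 3 ligand genes, against 0.537% of all genes that rose by this measure. It was 1.01 (SE 0.10, adjusted p = 0.000119) for Csf2, 0.75 (SE 0.10, adjusted p = 0.00142) for Csf3 and 0.56 (SE 0.06, adjusted p = 0.000168) for Csf1 in limma. A two-sided exact permutation of the LPS labels within each drug state gave p = 0.005 for each of these 3, the smallest p this design allows. These p-values belong to a family of 16 such tests (8 genes, 2 effects) and were not adjusted over it. With that smallest p, no gene could be under 0.05 after a Bonferroni adjustment over the family. The calls of all 3 were kept in every single-array omission. For Csf2ra, at 0.19, and Csf3r, at 0.12, the exact permutation p was 0.04 and 0.045, both unadjusted. In limma their unadjusted p was 0.0208 and 0.058, and their adjusted p 0.267 and 0.365.

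**Figure D3:**
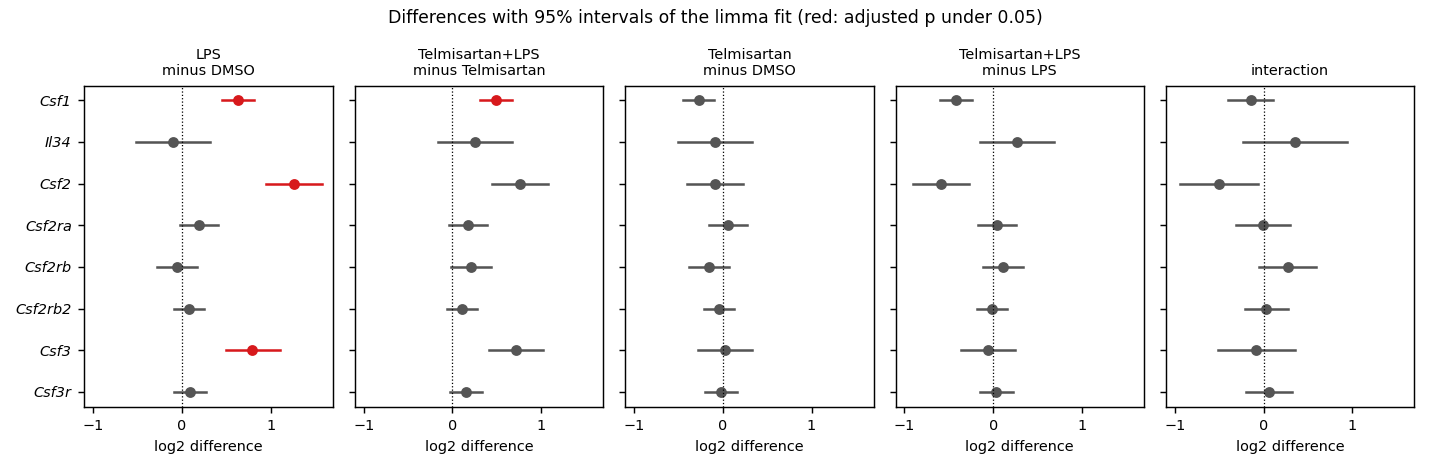
Log2 difference (horizontal axis) of each gene in 5 comparisons, with 95% intervals of the limma fit; red marks an adjusted p under 0.05. Called genes are Csf1, Csf2 and Csf3 for LPS minus DMSO and Csf1 for Telmisartan+LPS minus Telmisartan, and the drug comparisons and the interaction have none.

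Without LPS, telmisartan was followed by no call: 0 of the 8 genes and 0% of all genes passed in limma, and 1222 of all genes had an unadjusted p under 0.05. Csf1 had 8.48, 8.53 and 8.39 in Telmisartan, against 8.64, 8.84 and 8.74 in DMSO, and was the only one of the 8 whose groups did not overlap, as in 11.4% of all genes. Its difference was -0.27 (SE 0.08, 95% interval -0.45 to -0.09, unadjusted p = 0.00578 in limma, adjusted p = 0.86). The other 7 genes lay between -0.16 for Csf2rb and 0.06 for Csf2ra, each with an interval that included 0.

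In cells given LPS, telmisartan was again followed by no call among the 8 genes, and by 0% of all genes, with 2176 of all genes at an unadjusted p under 0.05. Its arrays are shared with both LPS comparisons. The 2 genes whose groups were apart were Csf1 and Csf2, both with the lower mean in Telmisartan+LPS, and groups were apart in 13% of all genes. Csf1 had 9, 8.81 and 9.05 in Telmisartan+LPS, against 9.28, 9.41 and 9.42 in LPS. Its difference was -0.42 (SE 0.08, 95% interval -0.60 to -0.24), a signal 0.749 times that in LPS (limma, adjusted p = 0.263). With trend and robust options Csf1 was called (limma, adjusted p = 0.033), and single-array omissions gave an adjusted p between 0.179 and 0.442.

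Csf2 had 4.19, 4.11 and 3.96 in Telmisartan+LPS, against 5.02, 4.35 and 4.66 in LPS. The difference was -0.59 (SE 0.14, 95% interval -0.90 to -0.28), a signal 0.664 times that in LPS (limma, adjusted p = 0.304). It was -0.64 and -0.53 without Telmisartan+LPS replicates 1 and 3, and -0.42 without LPS replicate 1, the brightest array. Csf3, by contrast, had overlapping groups, with 4.89, 5.06 and 4.95 in Telmisartan+LPS, against 5.30, 5.10 and 4.67 in LPS, and a difference of -0.06 (95% interval -0.36 to 0.25).

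Il34 was at 0.27 (95% interval -0.15 to 0.69), and at 0.11 and 0.49 without Telmisartan+LPS replicates 1 and 3. The receptor genes lay between -0.01 for Csf2rb2 and 0.11 for Csf2rb, and each interval included 0. No value of the 4 receptor genes exceeded 0.16 in size in either drug comparison.

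Whether the LPS effect differed with the drug was tested by the interaction, for which 0 of the 8 genes and 0% of all genes were called, with 1725 genes at an unadjusted p under 0.05. For Csf2 the LPS effect was 0.76 with telmisartan and 1.26 without it, or 1.7-fold and 2.40-fold. The interaction was -0.50 (SE 0.20, 95% interval -0.94 to -0.06, unadjusted p = 0.0293 in limma, adjusted p = 0.618), and single-array omissions gave -0.66 to -0.33. For Csf1 the effects were 0.49 with telmisartan and 0.63 without it (interaction -0.14, interval -0.40 to 0.11), and for Csf3 0.71 and 0.79 (interaction -0.08, interval -0.51 to 0.35). Csf2rb had 0.21 with telmisartan and -0.06 without it (interaction 0.27, interval -0.05 to 0.59).

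Averaged over both LPS states, the telmisartan difference of Csf1 missed the threshold, at -0.345 (SE 0.06, 95% interval -0.47 to -0.22; limma, adjusted p = 0.119). Csf1 ranked 10 of 22180 genes by unadjusted p here, and 0.00451% of genes were called. With trend and robust options and with dim genes left out, Csf1 was called (limma, adjusted p = 0.00787 and 0.0398). It was not called in any of the 12 single-array omissions (adjusted p in limma from 0.165 to 0.386). With every feature tested the adjusted p was 0.314. A two-sided exact permutation test that exchanged drug labels only among arrays of like LPS treatment gave p = 0.005 for Csf1, the smallest possible, and p = 0.035 for Csf2, whose average was -0.34 (SE 0.10; limma, adjusted p = 0.538). The other 6 genes had permutation p of 0.48 or more. These tests belong to the family of 16 given above.

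Csf1 averaged 8.95 ± 0.13 in Telmisartan+LPS, 8.47 ± 0.07 in Telmisartan, 9.37 ± 0.08 in LPS and 8.74 ± 0.10 in DMSO (SD, n = 3 each). From high to low its order was LPS, Telmisartan+LPS, DMSO and Telmisartan. In that order only Telmisartan+LPS (8.81 to 9.05) and DMSO (8.64 to 8.84) overlapped. Csf2 averaged 4.09 ± 0.12 in Telmisartan+LPS, 3.32 ± 0.14 in Telmisartan, 4.68 ± 0.34 in LPS and 3.41 ± 0.17 in DMSO. It had the same order, and only Telmisartan and DMSO overlapped. Csf3 averaged 4.97 ± 0.09 in Telmisartan+LPS, 4.25 ± 0.23 in Telmisartan, 5.02 ± 0.32 in LPS and 4.23 ± 0.01 in DMSO. Its groups given LPS overlapped with each other, as did those without LPS. Il34 averaged 4.89 ± 0.39 in Telmisartan+LPS, 4.64 ± 0.36 in Telmisartan, 4.62 ± 0.19 in LPS and 4.73 ± 0.15 in DMSO, with all groups overlapping. Group means of the receptor genes spanned 0.24 at most: 8.31, 8.13, 8.26 and 8.07 for Csf2ra, 7.13, 6.92, 7.02 and 7.08 for Csf2rb, 8.51, 8.40, 8.53 and 8.45 for Csf2rb2, and 5.44, 5.28, 5.40 and 5.31 for Csf3r, in Telmisartan+LPS, Telmisartan, LPS and DMSO.

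Genes whose signal followed that of the called ligands most closely over the 12 arrays were taken by Pearson correlation among genes at or above the median mean signal. Predicted gene models, small RNA genes and the ligand itself were left out, so that 10227 or 10228 genes were considered. These correlations are over arrays that share the LPS grouping and describe these arrays only. Csf1 was closest to Irak2, a kinase of Toll-like receptor signalling (r = 0.970), followed by Btg1, Zc3h12c, the TNF receptor gene Tnfrsf1b and the inflammasome sensor gene Nlrp3 (r from 0.938 to 0.956). Csf2 was closest to Clec4e, a pattern recognition receptor gene (r = 0.981), and then Tnfrsf1b, Nlrp3, Klf6 and Rasgef1b (r from 0.963 to 0.968). Csf3 had the phosphodiesterase gene Pde4b (r = 0.944), the fatty acid receptor gene Gpr84, Btg2, Zfp36 and the chemokine gene Ccl4 (r from 0.932 to 0.940). Tnfrsf1b and Nlrp3 were among the 5 closest genes of both Csf1 and Csf2.

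The pathway around these receptors was described by 6 gene lists, chosen with earlier results of these data known. Over all genes, 0.379% rose and 0.0496% fell with LPS alone, with a median difference of -0.01. In Telmisartan+LPS against Telmisartan, 0.248% rose and 0.0135% fell. At shares this low, a list with 0 called does not stand out from all genes. Receptor signalling genes, which code for the kinases, adaptors and STAT factors that these receptors use, had 0 of 20 measured members called with LPS alone, with a median of 0.0017. The largest differences were in the kinase genes Jak2 at 0.20 (SE 0.07) and Fes at -0.18 (SE 0.09) and in the adaptor gene Gab2 at 0.20 (SE 0.07). The 4 partners of the beta chains, Il3, Il5, Il3ra and Il5ra, had 0 called, with Il3 at 0.12 the largest.

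Of 13 STAT5 and STAT3 target genes, 3 rose with LPS alone and none fell, with a median of 0.09. They were the feedback inhibitor gene Socs3 at 1.49 (SE 0.09), the kinase gene Pim1 at 1.16 (SE 0.08) and the growth regulator gene Myc at 0.82 (SE 0.12). In cells given telmisartan, Socs3 at 1.32 and Pim1 at 0.83 rose with LPS, and Myc was at 0.47 (limma, adjusted p = 0.173). As background, all 3 are also early targets of other pathways that LPS activates.

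Of 10 factors that control the decay of cytokine RNAs, 2 rose with LPS alone: Zfp36, which destabilises transcripts such as those of Csf2 and Csf3, at 1.51 (SE 0.09), and Zc3h12c at 0.54 (SE 0.07). The same 2 rose in cells given telmisartan, at 1.28 and 0.44. Of 13 genes for NF-kB subunits, AP-1 subunits and the NFAT factors, Jun at 0.67 (SE 0.08) and Junb at 0.69 (SE 0.10) rose with LPS alone and the list median was 0.18, and both rose with telmisartan, at 0.46 and 0.80. The NF-kB subunit gene Rel was at 0.42 with LPS alone (SE 0.09; limma, adjusted p = 0.0705). In Telmisartan+LPS against LPS, Rel was at -0.31 (SE 0.09; limma, adjusted p = 0.347) and Nfat5 also at -0.31 (SE 0.095, adjusted p = 0.362). Of the 13 genes, 11 had a negative and 2 a positive difference there, and 0 were called.

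Myeloid transcription factor genes had 0 of 11 called with LPS alone and a median of 0.13, with Ets2 at 0.36 (SE 0.09), Maf at 0.32 and Myb at 0.24. Averaged over both drug states, Ets2 was called at 0.33 (limma, adjusted p = 0.0386), and 0.537% of all genes rose by this measure. None of the 71 measured list genes was called in either drug comparison or in the interaction, in which 0% of all genes were called.

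**Figure D4:**
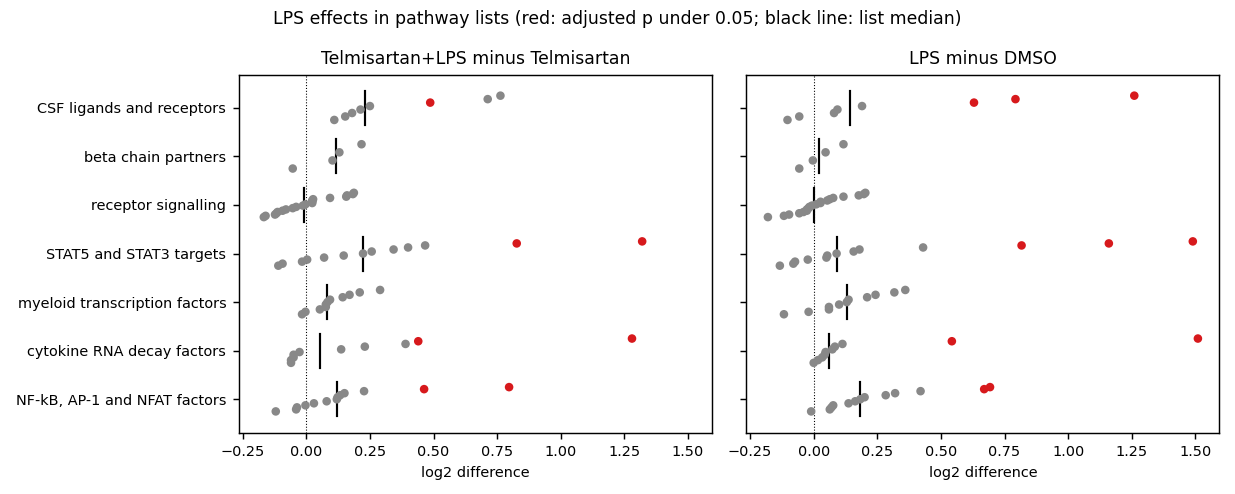
Log2 difference (horizontal axis) of every measured gene (points) of the 8 ligand and receptor genes and of 6 pathway lists, for Telmisartan+LPS minus Telmisartan (left) and LPS minus DMSO (right); red marks an adjusted p under 0.05 and the black line the list median. Receptor signalling and beta chain partner genes have no red point, and Socs3 and Zfp36 lie farthest to the right on both sides.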

How the data were processed

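Expression was measured on 12 second-generation Affymetrix mouse gene arrays. Per the file headers, the authors made the log2 values with RMA in Affymetrix Expression Console, whose engine was version 1.4.1.46: background correction, quantile normalization over all arrays together and median polish of perfect-match probes. Per the labels' protocol the array was of the first generation; the headers were followed. This puts all arrays on a common distribution. The summary table (2 decimals) was used; the series matrix (more decimals) was an alternative. Columns of other samples numbered 0. The precision is limited by the 3 arrays of each group.

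Of 41345 features, 23521 had 1 symbol in the platform annotation, 1820 several and 16004 none. Symbols were updated through Entrez identifiers for 23328, and 193 were kept. The feature with the highest mean represented each of 22180 genes. All arrays entered 1 limma 3.58.1 model (R 4.3.3) with 4 group means, 8 residual and 4.99 prior degrees of freedom, and Benjamini-Hochberg adjustment over all genes. Alternatives were the series matrix, dim genes left out, array medians subtracted, trend and robust options, array weights, other features, 2-group fits and omission of single arrays. Every member was named. Of each list, called genes and the 3 largest changes could be named, and the 5 closest genes of each called member by correlation. The members, lists and tests were chosen with earlier results of these data known. Some list genes are not reported here.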

Additional observations from a re-analysis of the deposited data

How the results depend on the processing

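Of 1040 values of the 8 genes recomputed under 20 alternatives, 974 kept their sign and their side of the threshold, 16 lost a call, 11 gained one and 39 changed sign. The count of called genes with LPS alone was 3 and lay between 2 and 3, and for the average LPS effect it was also between 2 and 3. In Telmisartan+LPS against Telmisartan it was 1, but 2 with dim genes left out, 3 with trend and robust options, 0 with array weights or with every feature tested, and 0 to 3 with single arrays omitted. In Telmisartan+LPS against LPS it was 0, and 1 (Csf1) with trend and robust options. For the average telmisartan effect it was 0, and 1 (Csf1) with dim genes left out or with trend and robust options. The cause of these shifts was not tested.

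Csf2 is the gene that the choice of feature changes. With its second feature it was at -0.0033 for LPS against DMSO, 0.013 for Telmisartan+LPS against LPS, 0.15 for the interaction and 0.072 for the average LPS effect (limma, adjusted p = 0.638). The other changes of sign were in uncalled values near 0. With array weights, the average telmisartan effect of Csf3r was -0.013.

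With single arrays omitted, Csf2rb ranged from -0.14 to 0.05 for LPS against DMSO. For Telmisartan against DMSO, Il34 ranged from -0.217 to 0.118, Csf2 from -0.168 to 0.0033, Csf2rb2 from -0.117 to 0.033, Csf3 from -0.085 to 0.14 and Csf3r from -0.062 to 0.023. For Telmisartan+LPS against LPS, Csf2ra ranged from -0.038 to 0.135, Csf2rb2 from -0.042 to 0.018, Csf3 from -0.233 to 0.082 and Csf3r from -0.05 to 0.085. For the interaction, Csf2ra ranged from -0.095 to 0.078, Csf2rb2 from -0.047 to 0.103, Csf3 from -0.257 to 0.058 and Csf3r from -0.027 to 0.108. The average LPS effect of Il34 ranged from -0.028 to 0.182. For the average telmisartan effect, Csf2rb ranged from -0.067 to 0.028, Csf2rb2 from -0.065 to 0.01, Csf3 from -0.105 to 0.053 and Csf3r from -0.037 to 0.031.

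Over all genes, calls in Telmisartan+LPS against Telmisartan numbered 58, but 149 with dim genes left out, 164 with trend and robust options, 35 with the 2 groups fitted alone and 31 without Telmisartan replicate 3. For the average LPS effect they numbered 148, but 281 with trend and robust options, 312 with dim genes left out and 97 without DMSO replicate 1. In Telmisartan+LPS against LPS the count was 0, but 14 with trend and robust options, 5 without LPS replicate 3, and 1 without Telmisartan replicate 1 or DMSO replicate 3. The interaction, with 0 calls, had 3 without LPS replicate 3 and 1 with dim genes left out or with trend and robust options, and Telmisartan against DMSO, with 0 calls, had 1 with every feature tested. The average telmisartan effect had 1 call, but 12 with trend and robust options, 9 with dim genes left out and 0 in 9 of 12 single-array omissions, those of any DMSO or Telmisartan+LPS array, of LPS replicate 1 or 2 and of Telmisartan replicate 3. Csf2 could not be tested with dim genes left out, and the interaction and averages could not be fitted with 2 groups. No replicate block was fitted. The titles carry running numbers in sets of 4 with 1 array of each treatment, but no label says that a set shares a culture or a day, so the sets were not taken as pairs and their effect was not tested.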
